A study of Mus musculus with 29 samples.

Results

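Fam46c, Gm13456 and Rpl3-ps1 were followed across 29 RNA sequencing libraries of the mouse aortic arch. These 3 genes, of 51456 gene symbols in the deposited tables, were chosen because their values were lower with a sclerostin antibody (Scl-Ab) than with vehicle after a measure of the circadian clock had been entered in the model. Their Scl-Ab and vehicle values are therefore given as a description, without a test. All 3 were among the 13510 genes that passed the filter on low values (at or above 1 in 9 or more libraries) and could be tested in other comparisons.

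The arches came from male C57BL/6 mice labelled as 14 weeks old. In 10 libraries the mice lacked apolipoprotein E (ApoE KO), carried a subcutaneous pump that delivered angiotensin II (AngII) from a solution of 15.27 mg/mL, at 0.11 µL/hr, and were given weekly Scl-Ab (10 mg/kg) over 4 weeks. In 9 libraries ApoE KO mice with the same AngII pump received vehicle. In 10 libraries wild-type (WT) mice received vehicle in the pump and in the injections. ApoE genotype and AngII change together between WT and the other groups and cannot be told apart. The protocol names 9 WT mice, so n counts libraries, and no label says that each library is a separate animal; p-values then measure the spread between these libraries.

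Fam46c (also Tent5c) encodes a noncanonical cytoplasmic poly(A) polymerase, which lengthens the tails of messenger RNAs and thereby stabilises them. It is best known in the B cell lineage, where it acts on transcripts of secreted proteins, and its human counterpart is recurrently mutated in multiple myeloma. Gm13456 and Rpl3-ps1 are processed pseudogenes, that is, copies of spliced messenger RNAs inserted back into the genome. Gm13456 copies Eef1a1, the elongation factor that brings aminoacyl-tRNA to the ribosome, and Rpl3-ps1 copies Rpl3, a protein of the large ribosomal subunit.

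Positions are those of GENCODE M21 on GRCm38. Fam46c lies on the minus strand at chr3:100451628-100489324 (ENSMUSG00000044468.14), and the coding part of its main transcript lies wholly in exon 2. Gm13456 lies on the plus strand at chr2:40555752-40557116 (ENSMUSG00000082536.1), and Rpl3-ps1 on the plus strand at chrX:13202571-13203780 (ENSMUSG00000084349.3). Of the deposited gene symbols placed on GENCODE M21, no other overlaps any of the 3. Annotated genes absent from the deposited tables were not checked.

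The 2 pseudogenes differ from the genes they copy at few bases, which bears on what their values count. Over 1316 aligned bases Gm13456 differs from Eef1a1 at 18 bases (98.6% identity), and its longest stretch without a difference runs for 301 bases. Rpl3-ps1 differs from Rpl3 at 2 of 1210 bases (99.8% identity), and its longest stretch without a difference runs for 728 bases. Transcripts of 16 other annotated genes match at least 50% of Gm13456 and those of 31 match at least 50% of Rpl3-ps1, and all but 1 in each set, the copied gene itself, are pseudogenes. The window of 60 bases shown here is from Gm13456 (chr2:40556619-40556678, plus strand) with the matching Eef1a1 transcript. Capitals mark the differing bases A913C, C922T and A927T, written as the base in the copied gene, the position from the 5′ end of the pseudogene and the base in the pseudogene.
Gm13456: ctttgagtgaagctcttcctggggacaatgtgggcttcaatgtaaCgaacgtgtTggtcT
Eef1a1: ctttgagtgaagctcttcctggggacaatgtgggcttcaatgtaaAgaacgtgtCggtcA

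For Rpl3-ps1 both differing bases are shown, C58A in chrX:13202598-13202657 and T787C in chrX:13203327-13203386 (plus strand). A fragment that covers neither position carries the same letters as a fragment of Rpl3.
Rpl3-ps1: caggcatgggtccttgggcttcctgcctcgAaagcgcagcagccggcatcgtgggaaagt
Rpl3: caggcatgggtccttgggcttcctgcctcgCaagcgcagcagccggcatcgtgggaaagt
Rpl3-ps1: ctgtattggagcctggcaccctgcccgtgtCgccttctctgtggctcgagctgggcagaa
Rpl3: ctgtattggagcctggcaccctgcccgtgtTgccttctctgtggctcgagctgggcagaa

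Fam46c was not searched for copies of this kind and was compared with its family only. Its coding sequence of 1176 bases is 69.7% identical to that of Fam46a, 65.7% to Fam46b and 63.4% to Fam46d, the other members of the TENT5 family. Since the gene was set beside a clock measure, its promoter was searched for the E-box and the D-box. No other clock motif was searched for, so the absence of clock motifs in general cannot be read from this. The RefSeq promoter table (GRCm38.p6) held Fam46c alone of the 3, with a window at chr3:100489143-100489442. On both strands the window had no E-box (CACGTG, present in 7.15% of 32851 promoter windows) and no D-box (TTATGTAA, in 0.938%). It held 1 CCAAT (in 37.4% of windows) and 7 GGGCGG GC boxes on the 2 strands together (in 35.7%). The part upstream of the annotated transcript start, chr3:100489325-100489442 on the minus strand, is shown with CCAAT and the GC boxes in capitals.
Fam46c: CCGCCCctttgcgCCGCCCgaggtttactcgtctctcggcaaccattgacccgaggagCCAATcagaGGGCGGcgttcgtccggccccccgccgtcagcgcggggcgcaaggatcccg

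For a transcript of 2 kb each unit of value was worth 31.9 to 43.8 fragments, a figure that depends on the authors' scaling as well as on depth, and total read numbers are unknown. The values are FPKM-like, that is, scaled by gene length. Apoe, the deleted gene, was at 4.64 to 12.5 in the 10 Scl-Ab libraries, 3.32 to 9.23 in the 9 vehicle libraries and 146 to 363 in the 10 WT libraries, as labelled. Smooth muscle markers were present in every group, with Myh11, the smooth muscle myosin heavy chain, at 493 ± 137 with Scl-Ab, 509 ± 113 with vehicle and 1196 ± 65.2 in WT (SD, n = 10, 9 and 10). The Scl-Ab library of replicate 17 stood apart for Gm13456 and for both copied genes: it had the lowest Gm13456 value (1.15, next 2.21), the lowest Eef1a1 value (1547, next 2339) and the lowest Rpl3 value (312, next 387) of its group.

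Fam46c was at 3.08, 3.58 and 4.64 (lowest, median and highest of 10) with Scl-Ab, at 4.92, 6.32 and 7.43 with vehicle (of 9) and at 3.72, 5.64 and 7.06 in WT (of 10). Every Scl-Ab library lay below every vehicle library, and 6 of 10 Scl-Ab libraries also lay below the lowest WT library. The means were 3.68 ± 0.44, 6.21 ± 0.74 and 5.45 ± 1.23 (SD) for Scl-Ab, vehicle and WT. WT varied most, with a coefficient of variation of 22.6%, against 11.9% with Scl-Ab and 11.9% with vehicle, and 3 WT libraries (replicates 20, 21 and 24, at 3.97, 3.90 and 3.72) lay well below the other 7, whose lowest was 5.43.

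**Figure D1:**
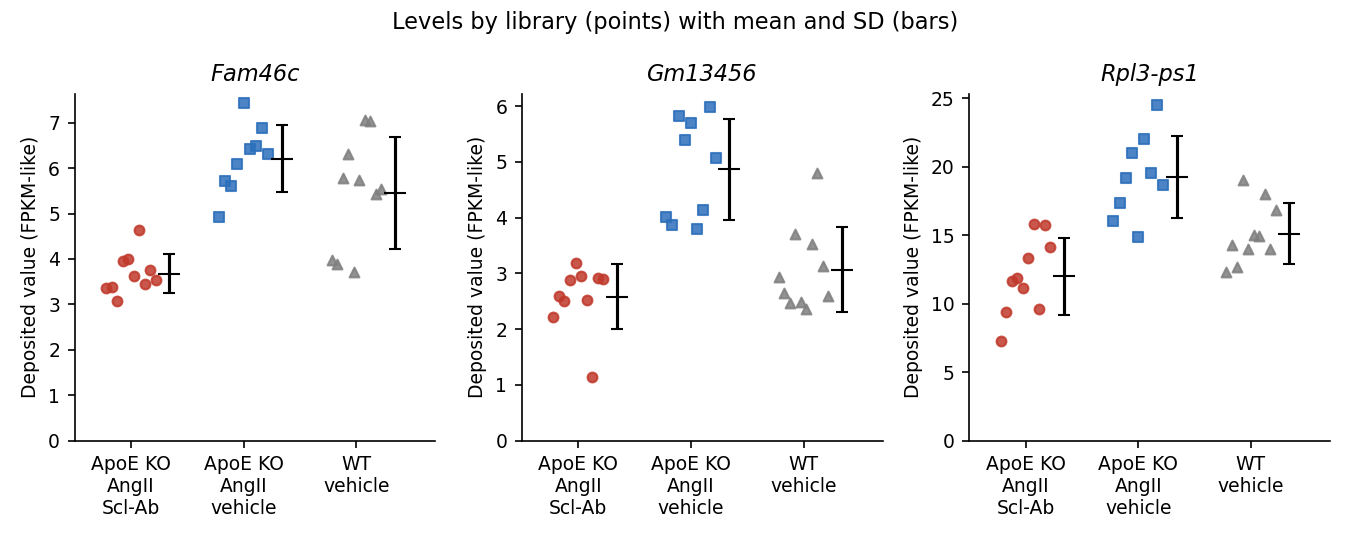
Deposited FPKM-like values of Fam46c, Gm13456 and Rpl3-ps1 in each library (points: ApoE KO AngII Scl-Ab, n = 10; ApoE KO AngII vehicle, n = 9; WT vehicle, n = 10), with the mean and SD of each group as bars. The Scl-Ab points lie below all vehicle points for Fam46c and Gm13456, and 2 Scl-Ab points lie above the lowest vehicle point for Rpl3-ps1.

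Gm13456 was at 1.15, 2.74 and 3.20 with Scl-Ab, at 3.80, 5.07 and 5.99 with vehicle and at 2.37, 2.80 and 4.79 in WT. The Scl-Ab and vehicle libraries again did not overlap, and 5 of 9 vehicle libraries lay above the highest WT library. Its means were 2.58 ± 0.58, 4.87 ± 0.90 and 3.07 ± 0.76 (SD) for Scl-Ab, vehicle and WT. The Scl-Ab and WT values of Gm13456 overlapped: only 2 of 10 Scl-Ab libraries lay below the lowest WT library.

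Rpl3-ps1 was at 7.25, 11.7 and 15.8 with Scl-Ab, at 14.9, 19.2 and 24.5 with vehicle and at 12.3, 14.6 and 19.1 in WT. The Scl-Ab and vehicle ranges met, with 2 Scl-Ab libraries at or above the lowest vehicle library, so that the Scl-Ab library was lower in 88 of 90 pairs. The means were 11.99 ± 2.81, 19.2 ± 2.99 and 15.1 ± 2.21 (SD) for Scl-Ab, vehicle and WT. Of all genes tested, 15 (0.111%) had every Scl-Ab library below every vehicle library, and Fam46c and Gm13456 are 2 of these; since the members were chosen on this difference, nothing is read from it.

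On the log2(value + 1) scale, which understates the change of low genes, Scl-Ab minus vehicle was -0.62 (SE 0.09) for Fam46c, -0.72 (SE 0.11) for Gm13456 and -0.66 (SE 0.11) for Rpl3-ps1. These correspond to 0.650-fold, 0.608-fold and 0.634-fold. Scl-Ab minus WT was -0.44, -0.18 and -0.33, and vehicle minus WT was 0.18, 0.53 and 0.33, for Fam46c, Gm13456 and Rpl3-ps1 in that order. All 3 genes thus had their lowest mean with Scl-Ab and their highest with vehicle, and whether the WT mean lay at different places between them was not tested. Among all 13510 genes, limma called 1005 (7.44%) between Scl-Ab and vehicle, 356 of them higher (2.64%) and 649 lower (4.8%). That is, 35.4% of the calls were higher; after scaling to equal totals 65.4% of the calls were higher, and after TMM scaling 49.4%.

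The clock measure was the mean log2(value + 1) of 8 genes that the clock drives or that peak with them (Dbp, Per1, Per2, Per3, Nr1d1, Nr1d2, Tef and Hlf) minus that of 4 genes of the opposite phase (Arntl, Clock, Npas2 and Nfil3). CLOCK and ARNTL form the transcription factor at the head of the circadian loop, and the Per and Nr1d genes are its targets and repressors. With Scl-Ab against vehicle 5 of the 8 rose and all 4 of the opposite phase fell (limma, against 2.64% and 4.8% of all genes). The lists were fixed with earlier results of these data known, and a clock measure entered the choice of the members. These counts are therefore a description. The index was 3.01 ± 0.63 (SD, n = 10) with Scl-Ab, 0.58 ± 1.16 (SD, n = 9) with vehicle and 2.53 ± 1.55 (SD, n = 10) in WT. The Scl-Ab and vehicle ranges of the index barely met: 2 vehicle libraries lay at or above the lowest Scl-Ab library and 1 Scl-Ab library lay at or below the highest vehicle library. The value at an equal index is thus mostly an extrapolation along the common slope.

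With the index in the model, Scl-Ab minus vehicle was -0.77 (SE 0.12) for Fam46c, -0.84 (SE 0.15) for Gm13456 and -0.92 (SE 0.13) for Rpl3-ps1 (0.585-fold, 0.559-fold and 0.530-fold). Each difference was larger in size than without the index. In the 19 ApoE KO libraries alone, where WT does not enter the slope, this held for Gm13456 (-0.79 with the index, -0.72 without) and Rpl3-ps1 (-1.03 and -0.66), while Fam46c was nearly the same (-0.63 and -0.62). The limma adjusted p that placed them inside the threshold of 0.05 was 0.00274, 0.0259 and 0.00266, and these were the 3 genes of 13510 (0.0222%) that passed. Just outside came Rps3a2, a ribosomal protein pseudogene (-0.97, adjusted p = 0.0718), Zmat2, which encodes a zinc finger protein (-0.25, 0.114), Rpl9-ps7, another ribosomal protein pseudogene (-0.76, 0.121), Gm20412, a noncoding transcript (-3.09, 0.123), and Gja4, which encodes the gap junction protein connexin 37 of arterial endothelium (-0.74, 0.190). None of the 3 passed when values were scaled to equal totals or when the 19 ApoE KO libraries were fitted alone, and Gm13456 did not pass with a pseudocount of 0.1, with no filter, or without vehicle replicate 3, 4 or 8, Scl-Ab replicate 10 or 11, or WT replicate 21, 22 or 26.

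**Figure D2:**
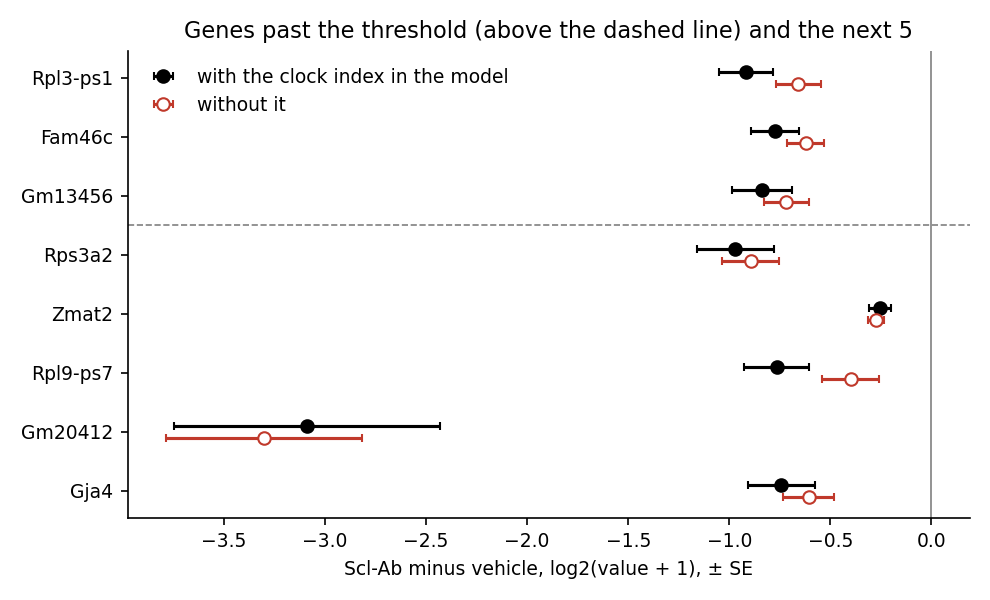
Scl-Ab minus vehicle on the log2(value + 1) scale (horizontal axis, ± SE) for the 3 genes that passed with the clock index in the model (above the dashed line) and the next 5 by p (below it), with the index (filled) and without it (open). The filled points of Fam46c, Gm13456 and Rpl3-ps1 lie at -0.77, -0.84 and -0.92, each further from 0 than its open point.

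Near where the index ranges met, the libraries could be set side by side. The vehicle libraries of replicates 3 and 4, with an index of 2.08 and 2.20, had Fam46c at 5.61 and 6.08. The Scl-Ab libraries of replicates 11 and 13, with an index of 1.76 and 2.41, had Fam46c at 3.37 and 3.95; replicate 13 lies just above the highest vehicle index. Gm13456 was at 2.604 and 2.875 in these Scl-Ab libraries, against 5.82 and 5.39 in these vehicle libraries, and Rpl3-ps1 was at 9.36 and 11.9, against 19.2 and 20.97. These are 4 libraries, shown without a test. The members were chosen on the difference between Scl-Ab and vehicle, so nothing is read from these values.

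Within the groups the index and the members went together to differing degrees. Across libraries, Pearson's r between the index and Fam46c was 0.278 with Scl-Ab (n = 10), -0.134 with vehicle (n = 9) and 0.554 in WT (n = 10). For Gm13456 it was -0.318, 0.440 and 0.396, and for Rpl3-ps1 it was 0.509, 0.638 and 0.595, in the same order. Rpl3-ps1 alone had a positive r in all 3 groups that was over 0.5 each time, whereas between Scl-Ab and vehicle the group with the higher index had the lower Rpl3-ps1. All values share the library and its scaling, so these r are descriptions. In WT the index was 0.12 to 2.27 in replicates 20 to 24. It was 3.07 to 4.34 in replicates 25 to 29. Index and replicate number thus cannot be told apart within WT, which also enters the common slope.

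**Figure D3:**
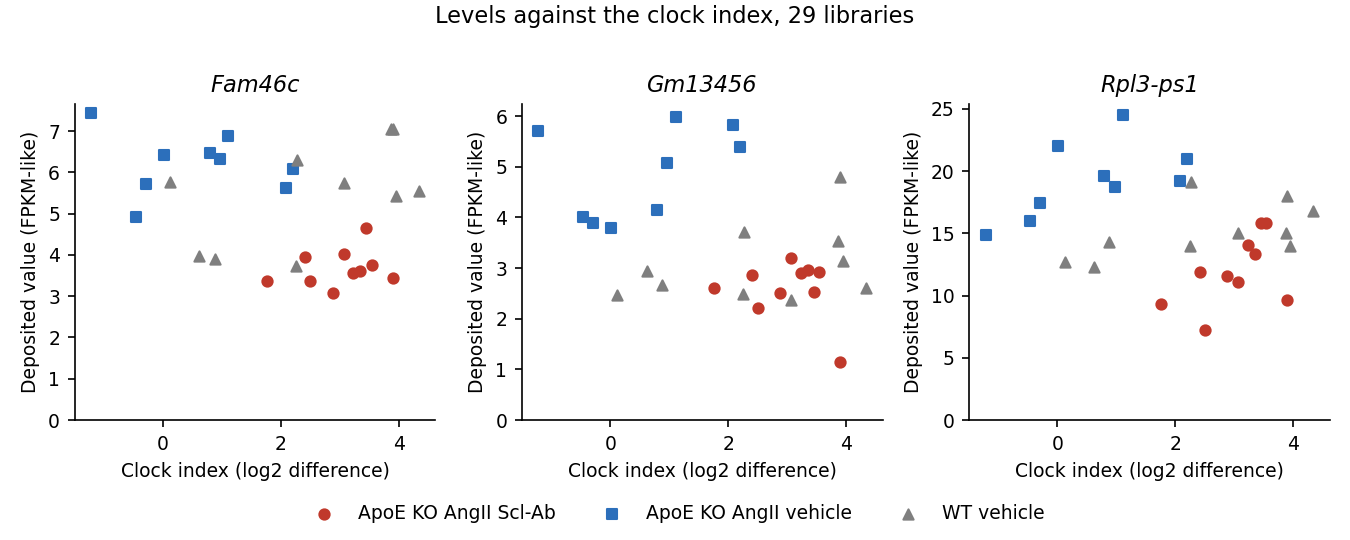
Deposited values of Fam46c, Gm13456 and Rpl3-ps1 (vertical axes, FPKM-like) against the clock index (horizontal axes, log2 difference) in 29 libraries, coloured by group. The vehicle points lie above all Scl-Ab points for Fam46c and Gm13456, and 2 Scl-Ab points reach the vehicle range for Rpl3-ps1; only 2 vehicle libraries have an index as high as the lowest Scl-Ab library (1.76).

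How many fragments stood behind the values could be recovered for Fam46c. Its value times the transcript length of 5640 bases came to a whole number of fragments within 0.05 in 29 of 29 libraries. There were 310 to 539 fragments with Scl-Ab, 555 to 788 with vehicle and 383 to 783 in WT, for a counting error of 3.56 to 5.68% per library. The spread within each group was larger than that counting error.

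The pseudogene values did not have this property. Gm13456 gave a whole number in 2 of 29 libraries and Rpl3-ps1 in 0 of 29, with 24.9 to 166 and 179 to 601 fragment equivalents. Among tested ribosomal protein pseudogenes with 1 transcript, 9.39% of values were whole, against 71.4% among protein-coding genes with 1 transcript, so that fractional values are usual for such pseudogenes here. Whole means within 0.05, which some fractional values meet by position alone, so these pseudogene values need not be whole counts. How the authors assigned fragments that match several copies is not given in the sources used here. The 2 pseudogene values are therefore uncertain as measures of transcription from their own loci.

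Set against the genes they copy, the pseudogene levels were small. The Gm13456 level was 0.107 ± 0.018% of the Eef1a1 level with Scl-Ab, 0.177 ± 0.031% with vehicle and 0.0996 ± 0.021% in WT (SD, n = 10, 9 and 10). The Rpl3-ps1 level was 2.92 ± 0.59% of the Rpl3 level with Scl-Ab, 4.58 ± 0.63% with vehicle and 2.92 ± 0.37% in WT. In these ratios the Scl-Ab and WT means lay close together and the vehicle mean lay above both, with 6 of 9 vehicle libraries above the highest WT library for Gm13456 and 8 of 9 for Rpl3-ps1. Scl-Ab and vehicle libraries did not overlap for Gm13456 and overlapped by 1 library of each group for Rpl3-ps1. The members were chosen on the difference between Scl-Ab and vehicle, and such ratios were not taken for other pseudogenes. Nothing is therefore read from these counts.

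**Figure D4:**
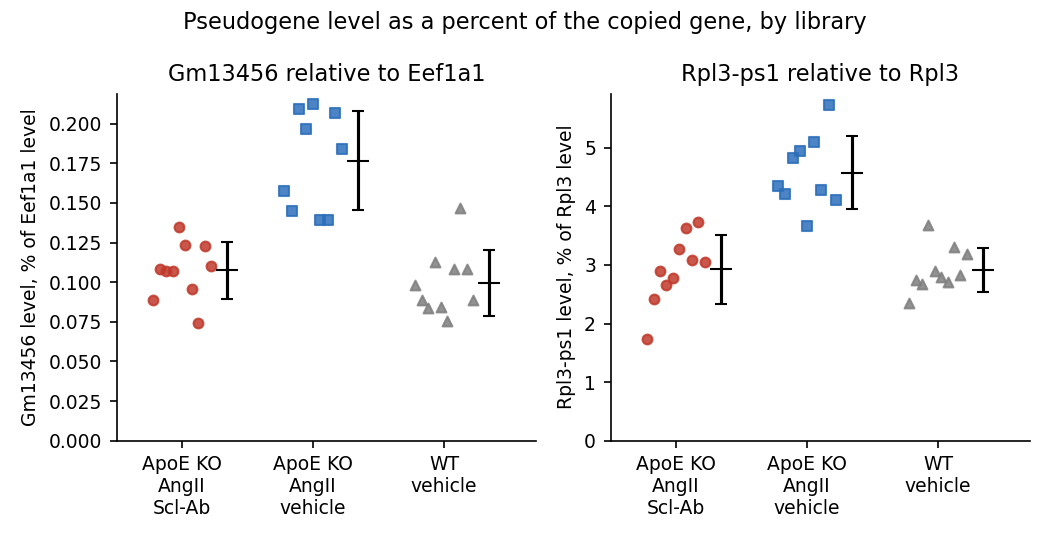
Level of Gm13456 as a percent of the Eef1a1 level and of Rpl3-ps1 as a percent of the Rpl3 level (vertical axes) in each library, with group mean and SD. The vehicle means (0.177% and 4.58%) lie above those of Scl-Ab (0.107% and 2.92%) and WT (0.0996% and 2.92%).

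Eef1a1 averaged 2385 ± 320 with Scl-Ab, 2755 ± 126 with vehicle and 3065 ± 159 in WT, and Rpl3 averaged 410 ± 41.2, 420 ± 27.9 and 517 ± 26.3 (SD). Neither passed between Scl-Ab and vehicle: the log2 difference was -0.22 (SE 0.07, limma adjusted p = 0.0546) for Eef1a1 and -0.04 (SE 0.06, limma adjusted p = 0.721) for Rpl3. Without the Scl-Ab library of replicate 17, Eef1a1 passed with a smaller difference (-0.15, limma adjusted p = 0.0456). It also passed without vehicle replicate 1 and without any of Scl-Ab replicates 13, 16 and 19 (limma adjusted p = 0.0383 to 0.0470), and with plain limma, without trend and robust (0.0449). Of the other copies of Eef1a1 that match Gm13456, Gm5869 (-0.32, limma adjusted p = 0.0895) and Gm6548 (-0.12, limma adjusted p = 0.401) were tested, and of those of Rpl3 only Gm11662 (-0.39, limma adjusted p = 0.0946); all 3 differences were negative and none passed.

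The members could be tested in the comparison of all ApoE KO AngII libraries (both treatments, weighted by group size) with WT. With these weights it does not share the plain Scl-Ab minus vehicle difference. The choice, however, used a fit with a clock measure, and the spread per gene comes from the same libraries, WT included. These p-values are therefore not fully independent of the choice. The differences were -0.15 (SE 0.08, limma adjusted p = 0.107) for Fam46c, 0.16 (SE 0.10, limma adjusted p = 0.170) for Gm13456 and -0.02 (SE 0.10, limma adjusted p = 0.875) for Rpl3-ps1. None of the 3 passed, and none had an unadjusted p under 0.05. At the same adjusted threshold 7847 of 13510 genes passed (58.1%), with 3159 higher (23.4%) and 4688 lower (34.7%). The share of these calls that was higher was 40.3% as deposited and 52.2% after TMM scaling. The pooled mean joins a group above WT and a group below it for each of the 3. Leaving out WT replicate 20, 21 or 24 brought Fam46c past the threshold (-0.19 to -0.20, limma adjusted p = 0.0296 to 0.0437), and leaving out Scl-Ab replicate 17 or WT replicate 27 did so for Gm13456 (0.21 each, limma adjusted p = 0.0237 and 0.0499). As a ratio to the copied gene, an alternative added after the data were seen, the pooled difference was 0.45 for Gm13456 (p = 0.00691, two-sided permutation test) and 0.30 for Rpl3-ps1 (p = 0.0469), not adjusted. In these ratios the Scl-Ab mean lay close to WT (0.107% against 0.0996% for Gm13456, 2.92% against 2.92% for Rpl3-ps1). The vehicle libraries, at 0.177% and 4.58%, thus carried most of the pooled difference. Their difference from Scl-Ab chose the members, so nothing is read from these 2 p-values. The copied genes themselves fell: Eef1a1 by 0.27 (SE 0.06, limma adjusted p = 0.000425) and Rpl3 by 0.32 (SE 0.05, limma adjusted p = 2.53e-06).

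Of the other TENT5 genes, Fam46a, which encodes another poly(A) polymerase, rose in the ApoE KO AngII libraries against WT (log2 0.60, SE 0.13, limma adjusted p = 0.000329) and rose with Scl-Ab against vehicle (0.55, SE 0.16, limma adjusted p = 0.0303). It averaged 22.4 ± 7.27 with Scl-Ab, 14.6 ± 3.37 with vehicle and 11.5 ± 2.31 in WT (SD). The Scl-Ab call for Fam46a was lost without vehicle replicate 2 or 6 or Scl-Ab replicate 14 or 15 (limma adjusted p = 0.0501 to 0.0658) after scaling to equal totals (0.0533), with no filter (0.0732) and in the ApoE KO libraries alone (0.0788). Fam46b averaged 6.59 ± 3.43, 11.2 ± 3.87 and 9.08 ± 5.08 in the same order; its Scl-Ab difference was -0.75 (SE 0.27, limma adjusted p = 0.0811), and it passed without vehicle replicate 1 (-0.88, limma adjusted p = 0.0377) or Scl-Ab replicate 10 (-0.86, limma adjusted p = 0.0411). Against WT, Fam46b did not pass (-0.05, limma adjusted p = 0.870). Fam46d was at 0 in all 29 libraries. Per length, Fam46c was the lowest of the 3 detected family members in the mean of every group.

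**Figure D5:**
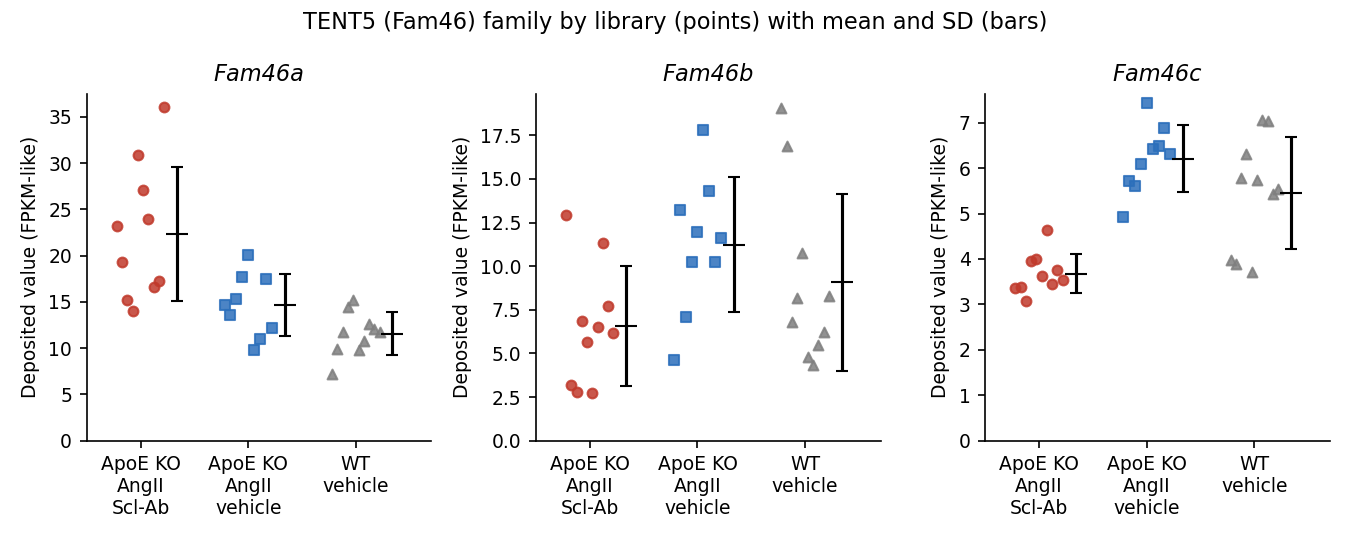
Deposited FPKM-like values of Fam46a, Fam46b and Fam46c in each library, with the mean and SD of each group. Fam46a is highest with Scl-Ab (mean 22.4), while Fam46b (6.59) and Fam46c (3.68) have their lowest mean there.

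Other genes that work on poly(A) tails were examined next. Of 9 tested other poly(A) and terminal nucleotidyl polymerases none passed limma between Scl-Ab and vehicle (median log2 -0.01, all genes -0.01), with 1 at an unadjusted p under 0.05 and 1 passing after TMM scaling. Of 15 deadenylase and poly(A)-binding genes none passed limma (median 0.02), with 4 at an unadjusted p under 0.05, and 1 passed without vehicle replicate 3 or 8, Scl-Ab replicate 10 or WT replicate 20. Against WT, 2 of the 9 polymerases rose and 4 fell in the ApoE KO AngII libraries, near the shares of all genes (23.4% higher and 34.7% lower), but after TMM scaling 3 rose and 0 fell, and 2 fell with equal totals, with no filter, and without Scl-Ab replicate 15 or WT replicate 25. Zcchc6, which adds uridines to RNA ends, rose by 0.35 (SE 0.06, limma adjusted p = 1.63e-05), and Papd4, a cytoplasmic poly(A) polymerase, by 0.19 (SE 0.05, limma adjusted p = 0.00227). Of the 15 deadenylase and poly(A)-binding genes 3 rose and 6 fell against WT, again near the shares of all genes, among them Parn, a poly(A)-specific ribonuclease (-0.24, limma adjusted p = 3.45e-06), and Pabpn1, the nuclear poly(A)-binding protein (-0.51, limma adjusted p = 0.000253); after TMM scaling 5 rose and 4 fell. All 3 genes of known FAM46C binding partners rose against WT, where 23.4% of all genes did: Fndc3a by 0.20 and Fndc3b by 0.33, whose products hold FAM46C at the endoplasmic reticulum, and Plk4, a kinase of centriole duplication, by 0.30 (limma adjusted p = 0.00088, 0.00618 and 0.0123). None of the 3 passed limma between Scl-Ab and vehicle (1 at an unadjusted p under 0.05); Fndc3b, at -0.37 (limma adjusted p = 0.0536), was nearest, and 1 passed without vehicle replicate 1, Scl-Ab replicate 10, 11 or 13, or WT replicate 28.

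Ribosomal protein genes gave the setting for Rpl3-ps1. Of 77 tested, 74 fell in the ApoE KO AngII libraries against WT, where 34.7% of all genes fell, and none rose (median log2 -0.43, all genes -0.05), among them Rpl23a (-0.58). Of 47 tested ribosomal protein pseudogenes of 276 in the files, 19 fell and none rose (median -0.27), led by Rpl10-ps3 (-0.62) and Rps23-ps1 (-0.51); after TMM scaling 73 genes and 16 pseudogenes fell. Between Scl-Ab and vehicle 5 of the 77 genes fell (median -0.06) and 4 of the 47 pseudogenes did (median -0.12), and Rpl3-ps1 is 1 of these 4 by the way it was chosen. Of all genes 4.8% fell, and the counts were 1 and 2 after scaling to equal totals.

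Deviations from the group means do not use the group differences, and over the 29 libraries they were compared for 5 pairs. Pearson's r was 0.448 for Fam46c with Gm13456, 0.418 for Fam46c with Rpl3-ps1 and 0.419 for Gm13456 with Rpl3-ps1 (adjusted p = 0.0263, 0.0263 and 0.0345, permutation within groups, 5 pairs). Spearman's rho for these pairs was 0.442, 0.451 and 0.397 (adjusted permutation p = 0.0270, 0.0214 and 0.0339), and r without the 2 libraries farthest from the median was 0.417, 0.446 and 0.330. Within the groups r was positive in each: 0.291, 0.426 and 0.601 for the first pair, 0.546, 0.215 and 0.587 for the second and 0.456, 0.164 and 0.600 for the third (Scl-Ab, vehicle, WT). Such values are not rare among genes, as 4.48%, 6.20% and 12% of all tested genes had an r at least as high with the first gene of the pair. Gm13456 with Eef1a1 gave r 0.665 (adjusted permutation p = 0.0130) and rho 0.483 (adjusted permutation p = 0.0188), but r 0.385 without the 2 farthest libraries, so that part of it rested on them. Rpl3-ps1 with Rpl3 gave r 0.47 (adjusted permutation p = 0.0345) and rho 0.591 (adjusted permutation p = 0.00855), and r 0.559 without the 2 farthest.

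By the same deviations over 29 libraries, the genes most like Fam46c were Zfpm1 (r 0.788), Jup (0.733), Garem1 (0.713), Tmem254c (0.711) and Scrn1 (0.705), and the most opposed were Map4k3 (-0.724), Tmem42 (-0.697) and Nt5m (-0.697). Those most like Gm13456 were Pgam5 (0.797), Pcyox1 (0.777), Nfix (0.774), Rgmb (0.758) and Gtf2i (0.753), and the most opposed were Nktr (-0.783), Gm20721 (-0.782) and Sbno2 (-0.754). Those most like Rpl3-ps1 were Sqstm1 (0.691), Tgfb1 (0.689), Tlr2 (0.675), Lrrk1 (0.673) and Evc (0.672), and the most opposed were Zfp125 (-0.682), Imp4 (-0.617) and Gfm1 (-0.606). No gene is in more than 1 of these lists. These r are the extremes of 13510 and are given as a ranking.

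Of the 6 nearest tested genes on the chromosomes, 1 passed between Scl-Ab and vehicle, where 7.44% of all genes did; with 6 genes nothing is read from this count. Beside Fam46c lie Man1a2, 72.9 kb away, which encodes a Golgi mannosidase (-0.21 with Scl-Ab against vehicle, limma adjusted p = 0.192), and Gdap2, 245 kb away (-0.14, limma adjusted p = 0.159). Beside Rpl3-ps1 lie Llph-ps2, a pseudogene 14.4 kb away (-0.22, limma adjusted p = 0.713), and Usp9x, a deubiquitinase gene 29.2 kb away (-0.14, limma adjusted p = 0.134). Gm13456 lies far from other tested genes, with Ppp6c, a phosphatase catalytic subunit, 1329 kb away (-0.18, limma adjusted p = 0.0275) and Arhgap15 3192 kb away (-0.07, limma adjusted p = 0.754). Ppp6c is the neighbour that passed.

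In a whole arch, fewer cells of a type and less RNA per cell cannot be told apart. The B cell marker Ms4a1 was low, averaging 0.112, 0.103 and 0.0916 with Scl-Ab, with vehicle and in WT, and none of the 14 B and plasma cell genes in the files was below 0.1 throughout a group. Of 4 tested B and plasma cell genes, 3 rose against WT (23.4% of all genes), among them Jchain, the immunoglobulin joining chain (1.30, limma adjusted p = 0.00171), and Sdc1, which plasma cells share with epithelia and fibroblasts (1.32, limma adjusted p = 5.20e-10). Between Scl-Ab and vehicle 1 of the 4 fell (4.8% of all genes): Xbp1, a transcription factor of secretory cells, at 79.3 ± 8.05 with Scl-Ab and 97.1 ± 8.75 with vehicle (SD; -0.29, limma adjusted p = 0.0335), a call lost after scaling to equal totals, with no filter, and without vehicle replicate 3, 5 or 6 or Scl-Ab replicate 12 or 18. The summed level of the 14 genes, mostly Xbp1, was 92.2 to 142 with Scl-Ab, 117 to 170 with vehicle and 87.5 to 147 in WT.

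Of 7 endothelial genes 3 fell with Scl-Ab against vehicle (4.8% of all genes): Pecam1, an adhesion molecule of endothelial junctions, by 0.67, Vwf, the von Willebrand factor gene, by 0.73, and Nos3, the endothelial nitric oxide synthase gene, by 0.60 (limma adjusted p = 0.0127, 0.0273 and 0.0258). The other 4 did not pass, and Kdr, a receptor for vascular endothelial growth factor, was the 1 of the 7 with a positive difference (0.56, limma adjusted p = 0.354). With no filter, and in the ApoE KO libraries alone, 1 of the 7 fell. Their summed level was 71.1 to 192 with Scl-Ab, 155 to 210 with vehicle and 89.4 to 165 in WT, and none was below 0.1 throughout a group. Heart muscle genes had a summed level of 43.2 to 893 (median 350) with Scl-Ab, 29.7 to 394 (median 92.6) with vehicle and 27.5 to 396 (median 70.0) in WT; 1 of 7 rose with Scl-Ab (2.64% of all genes). That count was 5 without Scl-Ab replicate 17, 3 without vehicle replicate 1, 2 without Scl-Ab replicate 15, and 0 without any of vehicle replicates 2, 3, 5, 6, 7 and 8 or Scl-Ab replicates 10, 11, 12, 13, 14, 16 and 18. Of 10 glucocorticoid-responsive genes 5 fell with Scl-Ab (4.8% of all genes), led by Zbtb16 (-2.13, limma adjusted p = 0.00592), a transcription factor gene. With no filter 3 fell. Their summed level was 229 to 859 with Scl-Ab, 275 to 1015 with vehicle and 251 to 769 in WT. The part of these in the Fam46c values was not tested.

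None of 10 macrophage, 7 smooth muscle, 5 erythroid or 7 adipocyte genes tested passed limma between Scl-Ab and vehicle, and at an unadjusted p under 0.05 there was 1 macrophage gene and 0 of the others. Against WT, where 23.4% of all genes rose and 34.7% fell, all 10 macrophage genes rose, led by Mpeg1, a pore-forming protein gene of phagocytes (4.32), and Lyz2, the lysozyme gene (2.94). All 7 smooth muscle genes fell, led by Myh11 (-1.30) and Lmod1, which encodes a muscle actin nucleator (-1.21), and 4 of 5 erythroid genes fell, led by the globin genes Hba-a1 (-1.21) and Hba-a2 (-1.17). The erythroid genes Slc4a1 and Epb42 were below 0.1 in every library. None of 9 T and NK cell genes reached the level for testing.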

How the data were processed

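Per the labels' protocols, stranded mRNA libraries were sequenced from aortic arches. Each deposited file gives FPKM-like values (named FPKQ in the file headers) for 51456 gene symbols. The authors' scaling is not spelled out. The submitters' processing notes name GRCm38 and DESeq2 1.10.1 without saying for which step. Which aligner and counter the authors ran is not given in these sources. Total read numbers are unknown. Fragments per value were recovered from the steps of low values; counting errors cover counting only.

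The fit was limma 3.58.1 (R 4.3.3, trend and robust) on log2(value + 1) over all 29 libraries. It took the 13510 genes at or above 1 in 9 or more libraries, and p-values were adjusted by Benjamini-Hochberg and called under 0.05. The fit was tested on simulated data. GENCODE M21 matched 47117 symbols, and copies were found with blastn 2.17.0. Permutation tests used 100000 resamples. Named genes are the members, their family, copied genes, neighbours, the most and least similar genes, the genes next to the threshold and the 2 smallest p of each list against WT (1 of these is not reported here); Ms4a1, Xbp1, Plk4, Pecam1, Vwf, Nos3, Kdr, Zbtb16 and the copies Gm5869, Gm6548 and Gm11662 were added after their values were seen. The members and lists were chosen with earlier results of these data known.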

Additional observations from a re-analysis of the deposited data

Results flagged for a closer look

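Of 27 sets of values (9 measures in 3 groups), 4 had a library far from the others of its group, where chance gives about 1 in 20 sets. With Scl-Ab, the library of replicate 17 was the lowest for Gm13456 (1.146, next 2.211), for Eef1a1 (1547, next 2339) and for Rpl3 (312.5, next 386.7). It was not the lowest for Fam46c or Rpl3-ps1. As a percent of the Eef1a1 level, Gm13456 was highest among WT libraries in replicate 27 (0.1467%, next 0.1129%). Without Scl-Ab replicate 17, Scl-Ab minus vehicle for Gm13456 was -0.64 on the log2 scale.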

How the results depend on the processing

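Scl-Ab minus vehicle stayed negative for Fam46c, Gm13456 and Rpl3-ps1, with and without the clock index, under pseudocount 0.1, no filter, equal totals, TMM scaling, plain limma, the 19 ApoE KO libraries alone and each library left out. It also did with other clock indices (with Ciart and Bhlhe41, added after the data were seen, or of 4 genes) and, for the 2 pseudogenes and without the index, as a ratio to the copied gene. The members were chosen for this sign, so that it stayed is a description and not support. Without the index the lowest and highest values over single libraries left out were -0.657 and -0.593 for Fam46c, -0.751 and -0.637 for Gm13456, and -0.703 and -0.589 for Rpl3-ps1. With it they were -0.828 and -0.736, -0.876 and -0.788, and -0.954 and -0.831.

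Genes called between Scl-Ab and vehicle numbered 1005, but 447 with no filter (more genes tested), 367 with equal totals, 309 with the ApoE KO libraries alone (fewer libraries), and 546 to 1223 with 1 library left out (628, 606 and 546 without vehicle replicates 5, 6 and 2). With the index the 3 calls became 0 with equal totals and 0 with the ApoE KO libraries alone, 2 with pseudocount 0.1 or no filter, and 2 to 5 with 1 library left out (5 without vehicle replicate 5 or Scl-Ab replicate 15 or 16). Gm13456 passed in 21 of 29 such fits and Fam46c and Rpl3-ps1 in 29.

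Against WT, the Rpl3-ps1 difference changed sign with equal totals (0.00976), TMM scaling (0.0465) and as a ratio to Rpl3 (0.298, permutation p = 0.0469), and ranged from -0.0574 to 0.0329 with 1 library left out. Fam46c ranged from -0.195 to -0.109 (limma adjusted p 0.0296 to 0.236) and Gm13456 from 0.119 to 0.214 (0.0237 to 0.298); as a ratio to Eef1a1 Gm13456 was 0.454 (permutation p = 0.00691). Fam46b against WT changed sign with TMM scaling (0.0135) and ranged from -0.134 to 0.0789 with 1 library left out, and Rpl3 between Scl-Ab and vehicle from -0.0639 to 0.00185 (without Scl-Ab replicate 17). The cause of these changes was not tested. Both ratio differences against WT rested mainly on the vehicle libraries, so nothing is read from their p-values. No paired analysis was possible because each replicate number occurs once in the series. Of the members, Gm13456 had the fewest fragment equivalents, 24.9 in its lowest library. Were these whole counts, the counting error would be 20.0%. They need not be whole counts, and this figure leaves out any error from assigning fragments shared with Eef1a1 and its other copies. That error was not measured.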
